A study of Rattus norvegicus with 17 samples.

Results

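Skin holds microbes back with small antimicrobial proteins and with alarmins, proteins that stressed or damaged cells release and that call in immune cells. The 8 genes described here are S100a8, S100a9, Defb4, Defb29, Defb51, Lcn2, Slpi and Camp, of 15154 genes with a named probe on the array. They were found by matching the sequence name of each probe to the rat gene table, which gave 8 probes, 1 for each gene. Defb4, Defb29 and Defb51 were picked because their values differed between arrays, with many values near background, so their differences are a description without a test. The other 5 genes are tested. The skin explants came from male CD hairless rats. The labels give an age of 2 to 3 months, which is shorter than the 5.5 months of exposure, so it is not the age at the end of exposure. Exposed rats received 94 GHz millimetre waves for 3 h on each of 3 days a week, and this lasted 5.5 months; sham rats went through the same schedule without the waves. There were 9 exposed and 8 sham arrays on 4 slides, each of which held both groups. The design text counts 6 exposed and 8 sham animals. Arrays of the exposed group could therefore come from the same rat, and p-values measure only the spread between arrays.

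Beta-defensins are short cationic peptides that disrupt microbial membranes, and human keratinocytes make some of them in response to interleukin 1 and interleukin 17. S100a8 and S100a9 pair up as calprotectin, which withholds zinc and manganese from microbes and signals through Toll-like receptor 4. Lcn2 binds bacterial siderophores and so denies bacteria iron, Slpi inhibits neutrophil elastase, and Camp is the precursor of the cathelicidin peptide. Neutrophils store calprotectin, Lcn2 and Camp, and activated keratinocytes also make calprotectin and Lcn2.

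The promoter windows of Lcn2, S100a9 and Camp are shown because Lcn2 and S100a9 were often high on the same arrays and Camp was not. Each window holds 250 bases before and 50 bases after a transcript start listed for the gene (RefSeq, GRCr8). For Lcn2 and Defb29 that start lies inside the gene's mapped span, not at its edge. Capitals mark matches to the motifs searched on both strands, which were NF-kB (by name), TTGCNNAA for C/EBP, TGANTCA for AP-1, TTCNNNGAA for STAT and TATAAA for the TATA box.
Lcn2, chr3:36081731-36082030, minus strand: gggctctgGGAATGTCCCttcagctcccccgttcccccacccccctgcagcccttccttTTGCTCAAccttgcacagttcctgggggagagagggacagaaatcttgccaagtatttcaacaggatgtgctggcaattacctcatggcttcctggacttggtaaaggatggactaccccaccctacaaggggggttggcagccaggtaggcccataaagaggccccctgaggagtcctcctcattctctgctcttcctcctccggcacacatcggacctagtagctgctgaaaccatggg
S100a9, chr2:178490573-178490872, minus strand: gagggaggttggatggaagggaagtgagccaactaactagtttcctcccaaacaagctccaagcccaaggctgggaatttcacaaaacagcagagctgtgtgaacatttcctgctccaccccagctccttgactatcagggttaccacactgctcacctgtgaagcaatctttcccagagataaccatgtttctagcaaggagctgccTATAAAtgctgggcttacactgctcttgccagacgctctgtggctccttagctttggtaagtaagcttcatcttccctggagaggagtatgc
Camp, chr8:118721949-118722248, minus strand: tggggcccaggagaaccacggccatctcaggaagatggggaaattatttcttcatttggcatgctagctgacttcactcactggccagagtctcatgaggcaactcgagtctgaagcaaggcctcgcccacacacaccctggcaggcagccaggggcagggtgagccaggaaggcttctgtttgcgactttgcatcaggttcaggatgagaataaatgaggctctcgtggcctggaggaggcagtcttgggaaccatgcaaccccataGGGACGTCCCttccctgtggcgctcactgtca
The Lcn2 window held an NF-kB match that starts at base 9 and a C/EBP match at base 60. The S100a9 window held a TATA box at base 209, and the Camp window held an NF-kB match at base 269, past the gene's start. Of 33469 promoter windows in the table, 7.51% held an NF-kB match, 10.6% a C/EBP match and 14.2% a TATA box. AP-1 matched in 7.33% of windows and STAT in 8.87%. Among the windows not printed, Defb51 held an AP-1 match at base 72 and Defb29 a C/EBP match at base 36. No window was available for Defb4, S100a8 and Slpi, so these genes were not searched.

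All values are log2 signals relative to the 75th percentile of the array, so 0 is the level of that percentile, and levels of different probes are not comparable. That percentile was a signal of 1077 to 1703, and 66.7% to 70.8% of probes per array were well above background. The keratins of skin were bright, with the basal layer gene Krt14 at 6.80 to 7.42 on exposed and 6.95 to 7.36 on sham arrays. Muscle genes varied far more between explants: a skeletal muscle score, the mean of 7 genes each centred on its own mean, was -3.58 to 5.92 on exposed arrays and -3.58 to 5.29 on sham arrays. In bulk samples of this kind, fewer cells of a type and less RNA per cell cannot be told apart.

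None of the 5 tested genes differed past the threshold in exposed against sham skin, and neither did any other probe. With limma and Benjamini-Hochberg adjustment at 0.05, 0 of 20709 probes, or 0%, were called, and 4.55% had an unadjusted p under 0.05. The tested genes had unadjusted limma p-values of 0.194 to 0.884. Exposed and sham values overlapped for all 8 genes; the groups did not overlap for 1 of 20709 probes, or 0.00483%. Several of these genes varied widely within both groups. The SD over all 17 arrays was 1.99 for Defb4, which was picked for that, 1.18 for S100a9 and 0.74 for Lcn2, against a median of 0.19 over the kept probes. The SD of S100a9 was above that of 98.4% of probes, and that of Lcn2 above 96.4%.

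**Figure D1:**
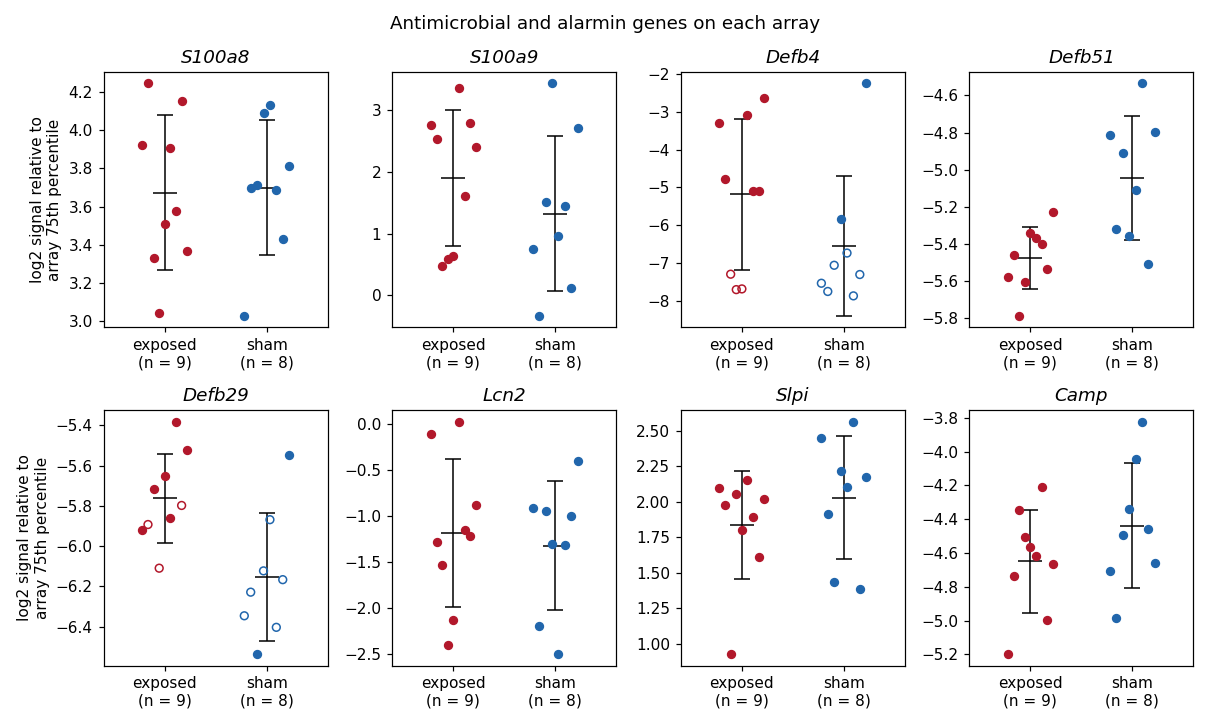
Log2 signal of each of the 8 genes on each array, relative to the array's 75th percentile, with exposed arrays on the left of each panel and sham arrays on the right. Filled points are well above background and open points are not; the line is the mean with its SD (9 exposed and 8 sham arrays). Exposed and sham values overlap in every panel.

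The 2 subunits of calprotectin varied by different amounts. S100a8 was at 3.05, 3.58 and 4.24 on exposed arrays (lowest, median and highest), against 3.03, 3.71 and 4.13 on sham arrays. These ranges nearly coincided, and the exposed minus sham difference was -0.026 (95% interval -0.40 to 0.34, limma adjusted p = 0.994). S100a9 was at 0.48, 2.41 and 3.36 on exposed arrays and at -0.33, 1.20 and 3.44 on sham arrays. Both groups held arrays near each end of this range. The S100a9 difference was 0.58 (-0.55 to 1.72, limma adjusted p = 0.983), with 6 of 9 exposed arrays above the sham mean. It was 0.17 with array weights, 0.34 without sham replicate 2, and 0.88 without sham replicate 4. Within slides 1, 3 and 4 it was 1.72, 1.84 and 0.99, and within slide 2, with 4 exposed and 2 sham arrays, it was -0.93. From the lowest to the highest array S100a9 spanned 13.7-fold and S100a8 2.32-fold. The paired spots of S100a9 on an array had a median SD of 0.021, far below the SD between arrays.

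Defb4, a beta-defensin, was above background on some arrays and at background on others. It was well above background on 6 of the exposed and 2 of the sham arrays, just the 8 arrays that the filter on dim probes asks for, so it was kept largely through exposed arrays. The array holds 10 Defb4 spots. On those 8 arrays 74 of 76 spots were well above background, and on the remaining 9 arrays 0 of 89 were. Exposed arrays were at -7.70, -5.08 and -2.65 (lowest, median and highest), against -7.86, -7.18 and -2.26 on sham arrays. The highest value of all came from sham replicate 8, followed by exposed replicates 9, 6 and 1. Among the arrays above background the signal spanned 11.9-fold, from -5.82 on sham replicate 4, where 8 of 10 spots were well above background. Sham replicate 5, at background, was at -6.73, so the values were graded. The mean was -5.19 ± 1.99 on exposed arrays and -6.54 ± 1.85 on sham arrays (SD, n = 9 and 8), a difference of 1.35. The size of this difference changed with the processing: it was 0.33 with normexp background correction, 0.74 with array weights and 1.84 with slide as a block. The normexp offset of 50 shrinks differences at the low signals of Defb4 by construction. Within slides 1 to 4 the Defb4 difference was 2.51, 0.55, 1.65 and 3.16.

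Defb51 and Defb29 showed small differences at low signal. Defb51 was well above background on all 17 arrays, and 30 of its 34 spots were. It was at -5.79, -5.46 and -5.23 on exposed arrays and at -5.51, -5.01 and -4.54 on sham arrays, a difference of -0.43. The ranges overlapped. In these values, by which the gene was picked, 0 of 9 exposed arrays lay higher than the sham mean. Normexp gave -0.24 with the 75th percentile and -0.16 with quantile scaling. Defb29 passed the filter like Defb4, through 6 exposed and 2 sham arrays. It was at -6.11, -5.80 and -5.38 on exposed arrays and at -6.54, -6.20 and -5.55 on sham arrays, a difference of 0.39. Its lowest value came from sham replicate 3, where it still counted as well above background, so flag and level did not go together for this probe. With normexp the Defb29 difference was 0.0030, and with normexp and quantile scaling 0.11. The normexp offset shrinks differences at the low signals of Defb29 and Defb51 by construction. The median SD between its spots was 0.28 on arrays above background, against an SD of 0.33 over all arrays.

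The siderophore binder Lcn2, the protease inhibitor Slpi and the cathelicidin gene Camp did not pass the test either. Lcn2 was at -2.40, -1.22 and 0.023 on exposed arrays and at -2.50, -1.15 and -0.40 on sham arrays. Both groups covered nearly the same range, with a difference of 0.14 (95% interval -0.60 to 0.87, limma adjusted p = 0.986). Its sign turned without exposed replicate 6, at -0.016, and without sham replicate 5, at -0.033. Slpi was at 0.93, 1.97 and 2.15 on exposed arrays and at 1.39, 2.14 and 2.56 on sham arrays, a difference of -0.19 (-0.58 to 0.20, limma adjusted p = 0.983). Exposed replicate 3 held the lowest Slpi value, and without it the difference was -0.078; without sham replicate 6 it was -0.12. Camp was at -5.20, -4.61 and -4.21 on exposed arrays and at -4.98, -4.47 and -3.82 on sham arrays, a difference of -0.21 (-0.54 to 0.12, limma adjusted p = 0.983). Only 2 of 9 exposed arrays lay higher than the Camp mean of the sham arrays. The Camp difference was -0.097 with normexp and quantile scaling, -0.11 with array weights and -0.12 without sham replicate 6. Camp was dim too, so the normexp offset shrinks its differences as well.

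Across the 17 arrays Defb4, S100a9 and Lcn2 tended to be high together. Pearson's r was 0.795 between Defb4 and S100a9 and 0.709 between Defb4 and Lcn2. On exposed arrays alone these were 0.898 and 0.893, and on sham arrays alone 0.660 and 0.487. These are descriptions over 17 arrays whose values share each array's scaling, and 9 of the Defb4 values lie at background, where they have no order. Over the 8 arrays with Defb4 above background, r was 0.774 with Lcn2 and 0.0307 with S100a9. Among the tested genes 60 relations were examined, 10 between genes and 50 with marker scores. Lcn2 and S100a9 had r = 0.647 (two-sided permutation p = 0.00524, adjusted p = 0.0786) and Spearman's rho = 0.556 (permutation p = 0.0224, adjusted p = 0.236), which missed the threshold. Their r was 0.754 with values centred within slides, 0.768 on the 6 arrays of slide 2, and 0.587 without the 2 arrays farthest from the median. It was 0.846 on exposed arrays alone and 0.430 on sham arrays alone. S100a8 and S100a9 had r = 0.602 (permutation p = 0.0114, adjusted p = 0.137) and rho = 0.654 (permutation p = 0.00598, adjusted p = 0.12). That r was 0.765 on exposed and 0.493 on sham arrays, 0.666 within slides, 0.880 on slide 2 and 0.558 without the 2 farthest arrays. The other slides hold too few arrays for a value of their own.

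**Figure D2:**
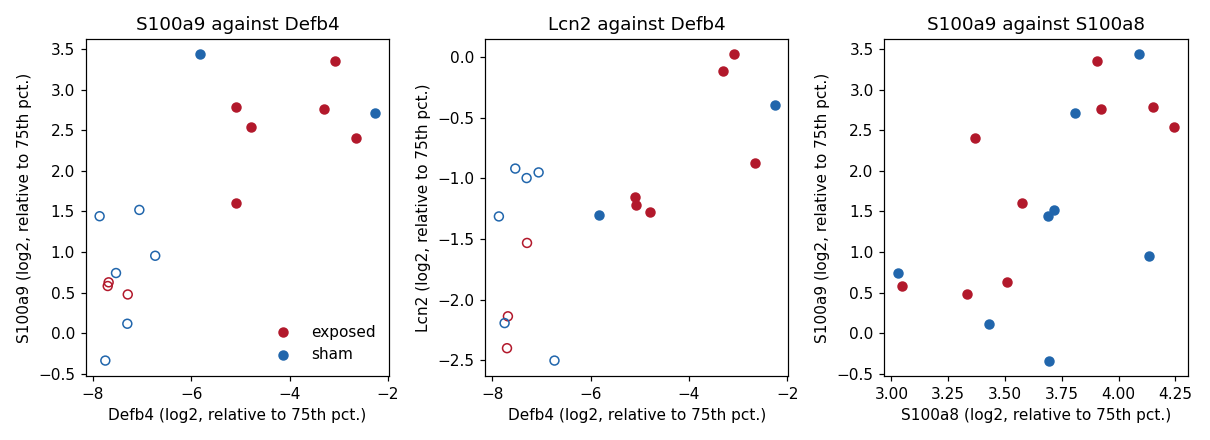
Log2 signal of S100a9 against Defb4, of Lcn2 against Defb4 and of S100a9 against S100a8, 1 point per array, with exposed arrays in red and sham arrays in blue; open points are arrays on which Defb4 was not well above background (left and middle panels). Exposed and sham points are mixed in each panel.

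Slpi and Lcn2 each had a relation with a keratinocyte score that passed by 1 of the 2 measures. Slpi and the basal keratinocyte score, over 5 genes such as Krt14 and Krt15, had r = 0.75 (two-sided permutation p = 0.00057, adjusted p = 0.0342) and rho = 0.576 (permutation p = 0.0173, adjusted p = 0.236). Its r was 0.777 within slides, 0.464 on slide 2 and 0.704 without the 2 farthest arrays. The call was lost without any 1 of exposed replicates 3, 4, 5 and 8 and sham replicates 3, 4, 5, 6 and 8, with r of 0.621 to 0.826 and adjusted p of 0.006 to 0.125 over the 17 such permutation tests. It was also lost with quantile scaling, with normexp and quantile scaling, and in the value table, with permutation adjusted p of 0.0952, 0.0882 and 0.0713. Lcn2 and the wound keratinocyte score, which includes the injury keratins Krt16 and Krt17, had rho = 0.806 (permutation p = 0.00023, adjusted p = 0.0138) and r = 0.649 (permutation p = 0.00454, adjusted p = 0.0786). The call by rank was lost with normexp, with rho = 0.723 (permutation adjusted p = 0.081). Within slides Pearson's r was 0.698, on slide 2 0.774, and without the 2 farthest arrays 0.612. This score rests on 5 of 10 listed genes, those with a named probe. Krt16 varied most of these, with an SD of 1.15 over all arrays, against 0.14 for Fabp5 to 0.29 for Sprr3. The score therefore mainly followed Krt16. Defb4 had r = 0.692 with the same score over all arrays and 0.496 over the arrays on which it was above background. With the hair follicle score Lcn2 had r = 0.561 (permutation p = 0.0175, adjusted p = 0.175), which missed the threshold. S100a8 and the sebaceous gland score had r = 0.676 (permutation p = 0.00254, adjusted p = 0.0762) and rho = 0.691 (permutation p = 0.00281, adjusted p = 0.0843), and missed the threshold by both. That r was 0.603 within slides, 0.666 on slide 2 and 0.588 without the 2 farthest arrays.

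**Figure D3:**
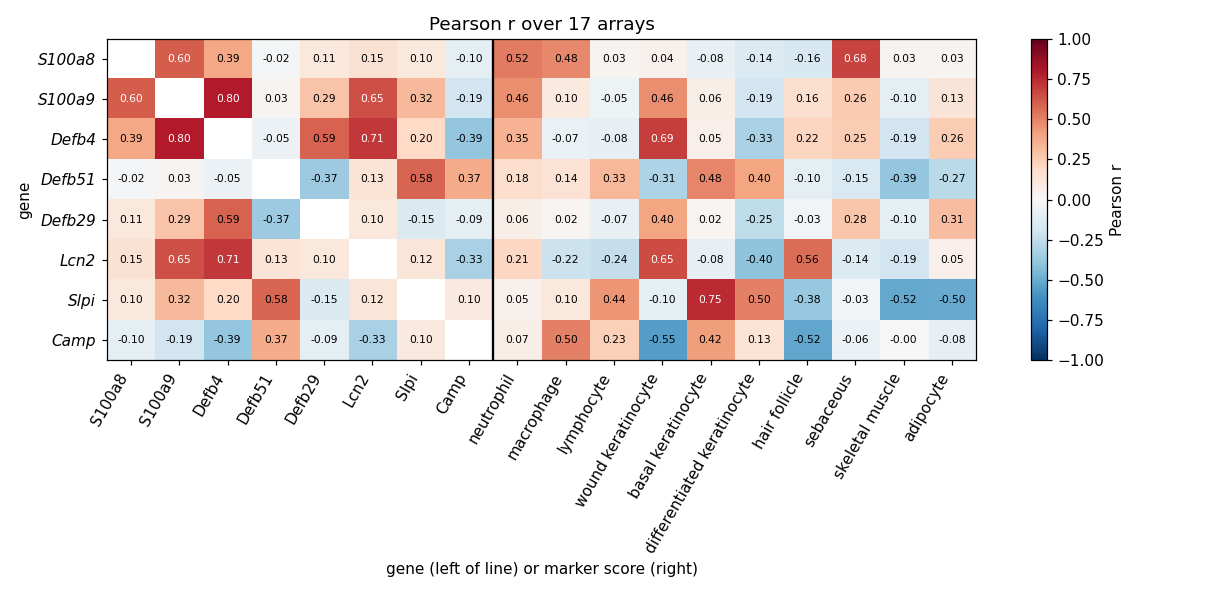
Pearson r over 17 arrays between the 8 genes (left of the line) and between each gene and the marker score of each cell type or tissue (right), on a colour scale from -1 to 1. The highest r is that of Defb4 with S100a9 among genes and that of Slpi with the basal keratinocyte score among scores.

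Neutrophil markers were detected in part. Of the 17 neutrophil entries 15 had a named probe, and 9 of those were too dim to test. The ficolin gene Fcnb, the chemokine receptor gene Cxcr2, Padi4, Lrg1 and Il1r2 were well above background on all 17 arrays, and Retnlg on 5 exposed and 5 sham arrays. Csf3r was so on 2 exposed and 1 sham array, and Cxcr1 and Trem1 each on 1 sham array. The granule protease genes Elane, Ctsg and Prtn3, with Ngp, Mmp8 and Olfm4, were well above background on 0 of 17 arrays. The score of the 6 measured genes was -0.22 to 0.33 on exposed arrays and -0.24 to 0.28 on sham arrays. Its r was 0.522 with S100a8 (permutation p = 0.0317, adjusted p = 0.197) and 0.465 with S100a9 (permutation p = 0.0619, adjusted p = 0.232). By rank, rho was 0.505 with S100a8 (permutation p = 0.0405, adjusted p = 0.27) and 0.446 with S100a9 (permutation p = 0.0749, adjusted p = 0.349). Within slides r was 0.431 and 0.448 for these genes, and without the 2 farthest arrays 0.412 and 0.480. The macrophage score was -0.31 to 0.23 on exposed arrays and -0.50 to 0.74 on sham arrays, and the lymphocyte score was -0.35 to 0.30 on exposed arrays and -0.24 to 0.34 on sham arrays. Among epidermal scores, the wound score was -0.28 to 0.48 on exposed arrays and -0.82 to 0.22 on sham arrays, and the basal score -0.30 to 0.17 on exposed arrays and -0.19 to 0.26 on sham arrays. The differentiated keratinocyte score was -0.53 to 0.30 on exposed arrays and -0.11 to 0.25 on sham arrays. All these ranges overlapped between the groups. The hair follicle score was -3.38 to 2.40 on exposed arrays and -6.43 to 2.53 on sham arrays, with 1 sham array far below the rest. The sebaceous score was -0.26 to 0.22 on exposed arrays and -0.49 to 0.51 on sham arrays, and the adipocyte score -0.16 to 0.50 on exposed arrays and -1.24 to 1.19 on sham arrays. The part of these tissues in the values of the 8 genes was not tested.

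Many defensin genes were not detected above background. Of 45 defensin genes with a named probe, Defb4, Defb29 and Defb51 included, 11 were well above background on every array, 15 on at least 8 arrays, another 8 on 1 to 7, and 22 on none. Defb1, which epithelia make without a stimulus, varied little, at 2.86 to 3.32 on exposed and 2.94 to 3.46 on sham arrays. Defb14, whose mouse namesake is regarded as the counterpart of an inducible human skin defensin, was at 0.20 to 1.99 on exposed and 0.86 to 2.10 on sham arrays. Of the 12 measured defensins beside the 3 picked ones, 3 had a positive and 9 a negative difference, and 0 passed. Their median difference was -0.097, against -0.025 over all probes. Defb52 had the smallest p of these, with -5.86, -5.70 and -5.36 on exposed arrays, against -5.68, -5.44 and -4.92 on sham arrays. Its difference was -0.31 (95% interval -0.53 to -0.096, limma adjusted p = 0.983).

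**Figure D4:**
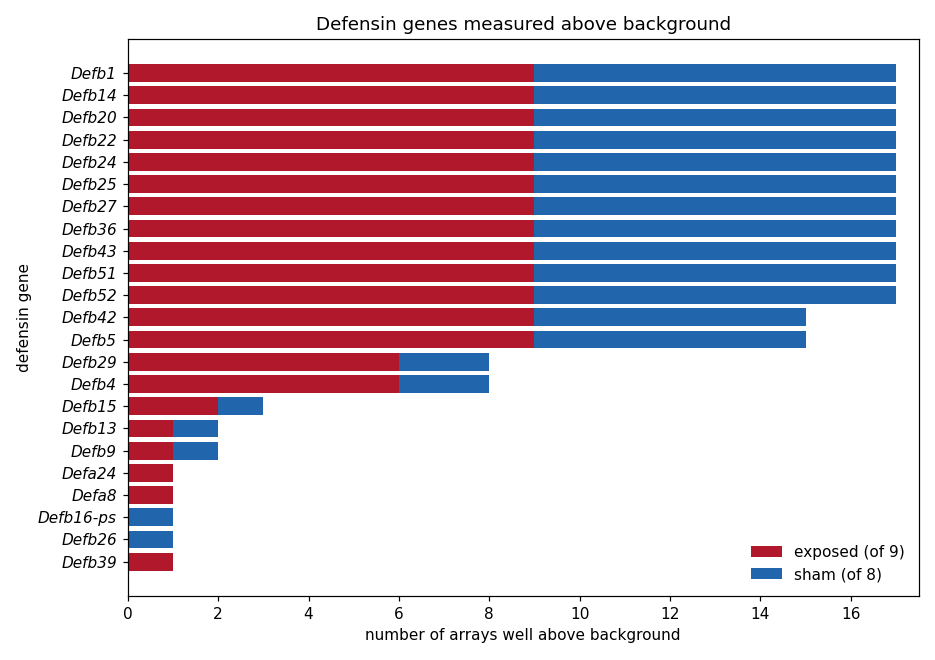
Number of arrays on which each defensin gene was well above background, for genes with at least 1 such array; the red part counts exposed arrays (of 9) and the blue part sham arrays (of 8). Defb4 and Defb29 were above background on 6 exposed and 2 sham arrays each.

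Defb5, another beta-defensin, varied much like Defb4. It was at -6.28, -1.95 and -0.14 on exposed arrays, all 9 of them above background, and at -8.10, -5.43 and -0.23 on sham arrays, 6 of them above background. Its 2 highest values came from exposed replicate 6 and sham replicate 8, and the groups overlapped. The difference was 2.18 (95% interval -0.23 to 4.59, limma adjusted p = 0.983). Its r with Defb4 was 0.940 over all arrays and 0.943 over the 8 arrays with Defb4 above background. Its r with S100a9 was 0.90 over all arrays and 0.246 over those 8, and with Lcn2 0.671 and 0.820. These relations were chosen after the values were seen and carry no test. Whether the Defb4 and Defb5 probes bind each other's RNA was not tested.

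Other genes of these pathways gave no call. Over 5 lists, of antimicrobial genes, S100 genes, alarmins with their receptors, the interleukin 17 and NF-kB axis, and the defensins above, 82 genes were measured. Of these 36 had a positive and 46 a negative difference, and 0 passed. The median difference over all 20709 probes was itself negative, at -0.025. At an unadjusted limma p under 0.05, 2 of the 82 genes were higher and 5 lower, beside 0.594% higher and 3.96% lower among all probes. That split over all probes, 123 higher and 820 lower, depended on the setting. It was 200 higher and 635 lower with quantile scaling, 75 and 1024 with normexp, and on slide 1 it turned round, with 394 higher and 149 lower. Among 17 other antimicrobial genes the median difference was -0.0070, and its sign turned with quantile scaling, with median scaling and with normexp, among others, but not with normexp and quantile scaling. Wfdc3, of the protein family of Slpi, differed by -0.51 (95% interval -0.96 to -0.051, limma adjusted p = 0.983), and the peptide hormone gene Adm by 0.21. Among 12 other S100 genes the median was 0.10, with S100a6 at 0.15 and S100a13 at -0.070. That median was 0.030 with normexp and 0.034 without sham replicate 6, and below 0 on slides 2 and 4, at -0.13 and -0.038. Among 20 alarmin cytokine and receptor genes the median was 0.0019, with the scavenger receptor Cd36 at 0.35 and the endocytic receptor Lrp2 at -0.35. Among 21 genes of the interleukin 17 and NF-kB axis it was -0.049, with the NF-kB inhibitor Nfkbia at -0.19 and the cytokine gene Il20 at -0.48. The alarmin median was below 0 without any 1 of exposed replicates 2, 4 and 6 and sham replicates 2, 3 and 8, at -0.025 at the lowest, and on slide 4, at -0.094. That of the interleukin 17 and NF-kB axis was above 0 on slides 2 and 4, at 0.073 and 0.037. The cytokine genes Il17c, Il17f and Il22 were well above background on 0 of 17 arrays, and Il17a on 2 exposed and 3 sham arrays.

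The named genes most like each member were picked by Pearson's r over 17 arrays from 10306 genes above background on every array, as a description. For Defb4 they were the glycolytic enzyme gene Eno1 (r = 0.857), Gpr17 and Letm1. For Lcn2 they were Ankk1 (r = 0.876), the neutrophil attractant Cxcl1 (r = 0.832) and again Eno1 (r = 0.804). For S100a9 they were the sterol synthesis genes Tm7sf2 (r = 0.823) and Cyp51 (r = 0.814), and the peroxisomal thiolase gene Acaa1a. S100a8 was most like Commd7 (r = 0.885), the mitochondrial ribosome gene Mrpl36 and Ssr4. Slpi was most like the cell polarity gene Scrib (r = 0.885), Efcab7 and Kctd15, and Camp most like the tetraspanin gene Tspan5 (r = 0.885), C10h17orf107 and Siae. Defb51 was most like Mier3 (r = 0.819), Prpf18 and Marchf7, and Defb29 most like Akr1b8 (r = 0.726), Zfp787 and Haus1. Defb4 and Defb29 were each not well above background on 9 of the arrays used, and r was not computed without those. Eno1 and Letm1 spanned only 0.32 and 0.21 log2 units over the arrays.

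Between the 4 slides 0 of 20709 probes, or 0%, passed (limma F test, Benjamini-Hochberg), and 8.9% had an unadjusted p under 0.05. The 5 tested genes had limma adjusted p-values of 0.738 to 0.978 in that test.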

How the data were processed

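RNA of 17 skin explants was labelled with Cy3 and hybridised to 1-colour Agilent arrays, per the labels. The deposited intensity values were made with Agilent Feature Extraction 10.7.3.1, which corrected background within each array and scaled nothing between arrays, per the file headers; its spot flags mark outliers and spots above background. The deposited log2 value table holds 14853 probes, each centred on its median, and 4 of the 8 genes; how it was scaled is not given in the sources used here, and it served as an alternative.

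From the intensities, control and outlier spots were left out, the log2 signals of a probe's spots were averaged, and the 75th percentile of the array's non-control spots was subtracted. Of 30367 probes, 20709 were kept, those well above background in at least 50% of spots on at least 8 arrays. RefSeq symbols (GRCr8) were matched to 17998 probes, and the brightest kept probe stood for a gene. Groups were tested with limma 3.58.1 (R 4.3.3), with p-values adjusted by Benjamini-Hochberg across the kept probes. The same fit was also run on simulated data with known differences and independent noise for each array. Correlations used 100000 permutations. Named genes were the members, the 3 most alike genes of each, the 2 smallest p-values of each pathway list, and markers of 10 cell types or tissues. The members and lists were chosen with earlier results of these data known. Replicates are numbered in accession order. Alternatives were other scalings, normexp (offset 50, on median spot signals, since no mean signal is in the files used), other filters, slide, array weights, the value table and leaving out each array.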

Additional observations from a re-analysis of the deposited data

Results flagged for a closer look

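Of 96 sets of exposed or sham values checked with Dixon's test at 95%, 11 had 1 array apart from the others, where chance gives about 1 in 20. Defb4 was at -2.26 on sham replicate 8, against -7.86 to -5.82 on the other sham arrays. Defb4 was picked for its differences between arrays, so its flag, counted among the 11, is a description and not a test. Slpi was at 0.93 on exposed replicate 3, against 1.61 to 2.15 on the other exposed arrays. The same array stood apart for the epidermal gene Sbsn, at 4.34, and for the adipocyte gene Fabp4, at 2.69. The neutrophil score was 0.33 on exposed replicate 6, against -0.22 to 0.056, and Lrg1 was at 2.63 on exposed replicate 1. Nfkbia was at 0.98 on exposed replicate 9. On sham arrays, the T cell gene Cd3d was at -1.90 on replicate 2 and Krt1 at 6.79 on replicate 3. The hair follicle keratins were low on sham replicate 5, Krt25 at -4.44 and Krt27 at -8.18.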

How the results depend on the processing

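No probe passed between exposed and sham skin in any of 12 other settings or 17 limma fits without 1 array, where 543 to 1315 and 680 to 1354 probes had an unadjusted p under 0.05; that number was 579 in the value table, 543 on slide 1 and 628 on slide 4, with fewer probes or arrays. Between slides 0 passed in each of 6 other settings. By Pearson's r the number of correlations past the threshold was 0 with quantile scaling, 0 with normexp and quantile scaling, and 0 to 2 without single arrays. By rank, in settings chosen after seeing the data, it was 0 with normexp and 1 to 2 without single arrays, with 2 without exposed replicate 2. The rank call of Lcn2 with the wound score held in each of the 17 permutation tests without 1 array, with rho of 0.774 to 0.856 and adjusted p of 0.0021 to 0.0402, and with quantile scaling, median scaling, normexp with quantile scaling, and in the value table. The number of correlations was not computed for the value table, which lacks members. Signs turned within single slides for Lcn2 (-0.29, slide 2), S100a9 (-0.93, slide 2), Slpi (0.15, slide 2), S100a8 (0.47, slide 1, and 0.020, slide 3) and Camp (0.084, slide 1). Without single arrays S100a8 ran from -0.12 to 0.052 and Lcn2 from -0.033 to 0.29, with 5 and 2 turned signs. Defb29 was at 0.071 on slide 3, 0.0030 with normexp and 0.11 with normexp and quantile scaling, and Defb51 at -0.16 with the last. The normexp offset shrinks differences of dim probes such as those of Defb29 and Defb51 by construction. Other causes were not tested. Slide 3 holds 1 array per group and gives a value without a test. No paired analysis was possible because the labels give no replicate numbers. The number of arrays limits the precision, and Defb4 and Defb29 were near background on many arrays.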
